A study of Mus musculus with 2 samples.

Results

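The 40 genes described here encode basic helix-loop-helix (bHLH) transcription factors and the Id proteins that bind them, and their RNA was measured in the midbrain of mouse embryos. They were chosen by gene family, by name and not by level: proneural factors and their relatives, the E proteins, the Id genes and a set of mesodermal factors, with the Hes and Hey repressors left out. All 40 were found among the 43346 genes of the tables, of which 21474 are annotated as protein-coding. The series holds 1 group, total RNA of whole dissected midbrain from embryos of strain B6NCrl, aged 10.5 days and of mixed sex, with no treatment and no other condition. Replicate 1 is a pool of 69 embryos and replicate 2 a pool of 51, each made into 1 library from 10 ng of RNA over 200 nt, with spike-in RNA added. There is no second condition, so levels are descriptions, and the single comparison the design allows is of the 2 pools with each other.

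A bHLH factor binds DNA as a dimer, usually at the E-box sequence CANNTG. The tissue-restricted proneural factors, such as the neurogenins, pair with the broadly expressed E proteins and drive dividing neuroepithelial cells to leave the cycle and become neurons. Id proteins have the dimerization helices without the basic DNA-binding stretch, take up E proteins and so hold progenitors back. In the midbrain, neurogenins are known for glutamatergic and dopaminergic lineages, and Helt, Tal2 and Tal1 for GABAergic neurons.

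Most of the members, the Id genes aside, encode factors that bind E-boxes, and many are thought to regulate one another. The 250 bases before each RefSeq RNA start of the members were therefore searched for 2 motifs on both strands. The first is CANNTG, the E-box, and the second is CACGCG, a site of hairy-related repressors. A single 6-base stretch cannot be both. The windows below, from RefSeq on GRCm38.p6, belong to the 5 members that differed most between the libraries among those with an entry and at least 10 TPM in 1 library, together with Atoh1, the only member past 2-fold, and they are cut before the first base annotated as untranslated region. Capitals mark the 2 motifs.
Atoh1 (chr6:64728875-64729124, plus strand): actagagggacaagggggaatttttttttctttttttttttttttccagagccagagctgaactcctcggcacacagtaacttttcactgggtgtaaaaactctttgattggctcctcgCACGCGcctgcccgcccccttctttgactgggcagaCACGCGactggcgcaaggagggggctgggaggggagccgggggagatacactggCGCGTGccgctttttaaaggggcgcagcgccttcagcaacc
Olig3 (chr10:19356289-19356532, plus strand): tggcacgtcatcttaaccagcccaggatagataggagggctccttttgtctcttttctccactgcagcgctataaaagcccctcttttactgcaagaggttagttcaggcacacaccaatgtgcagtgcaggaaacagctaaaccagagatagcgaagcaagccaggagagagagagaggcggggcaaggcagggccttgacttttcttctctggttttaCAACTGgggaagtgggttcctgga
Helt (chr8:46294672-46294921, minus strand): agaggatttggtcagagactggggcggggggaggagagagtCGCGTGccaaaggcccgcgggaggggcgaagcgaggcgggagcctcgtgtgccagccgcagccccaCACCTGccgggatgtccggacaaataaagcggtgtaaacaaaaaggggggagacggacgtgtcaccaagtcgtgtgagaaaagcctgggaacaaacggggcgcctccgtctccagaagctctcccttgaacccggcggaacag
Id4 (chr13:48260866-48261115, plus strand): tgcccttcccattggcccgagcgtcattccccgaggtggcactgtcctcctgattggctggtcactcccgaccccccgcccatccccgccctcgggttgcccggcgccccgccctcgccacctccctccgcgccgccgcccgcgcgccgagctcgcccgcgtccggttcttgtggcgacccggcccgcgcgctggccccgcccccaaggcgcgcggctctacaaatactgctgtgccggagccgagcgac
Neurog2 (chr3:127632886-127633134, plus strand): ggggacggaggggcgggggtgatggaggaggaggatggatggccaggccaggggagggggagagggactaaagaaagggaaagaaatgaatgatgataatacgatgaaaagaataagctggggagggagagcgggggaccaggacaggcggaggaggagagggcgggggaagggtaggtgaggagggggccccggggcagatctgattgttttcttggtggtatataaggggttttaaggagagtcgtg
Nhlh2 (chr3:102009895-102010075, plus strand): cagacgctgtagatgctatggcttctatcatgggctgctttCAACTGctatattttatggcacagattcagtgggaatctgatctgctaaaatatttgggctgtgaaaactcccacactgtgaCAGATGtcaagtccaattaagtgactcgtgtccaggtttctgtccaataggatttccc
The shares over all members given after these 6 windows use all 250 bases of each window; 16 of the 36 contain bases that GENCODE M21 annotates as untranslated region in some transcript, and 2, 1 of Id3 and 1 of Tcf12, consist of them entirely. The Atoh1 window holds CACGCG 3 times and no E-box. Helt has 1 of each, Nhlh2 has 2 E-boxes, Olig3 has 1 E-box, and Neurog2 and Id4 have neither. Over the 36 windows of the 32 members in the table, an E-box was present in 20, or 55.6%, against 66.2% of all 32851 windows of the same length. CACGCG was present in 9 member windows, or 25%, against 7.62% of all windows. Those 9 belong to Ascl2, Atoh1, Atoh8, Bhlhe41, Helt, Neurod1, Neurog3, Ptf1a and Tcf12. Member windows were richer in CpG, with a median of 15.5 CpG dinucleotides against 6 and a median GC content of 60.8% against 52.4%; the part of this in the CACGCG share was not tested. The table has no entry for Bhlhe22, Bhlhe40, Hand1, Id1, Msc, Olig1, Tcf15 and Tcf4. A match is a string of letters and no measurement of binding.

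The libraries summed to 47128426 (replicate 1) and 52189568 (replicate 2) expected counts, of which 3.39% and 3.28% fell on spike-in and tRNA rows. Levels are given as TPM, a relative abundance of transcripts corrected for length, which allows genes to be compared, and 2 values joined by "and" are replicate 1 and replicate 2 in that order. The midbrain label was checked on 9 genes of the region, of which 8 reached at least 1 TPM in both libraries, led by Otx2 at 138.04 and 122.72 TPM. In bulk tissue fewer cells of a type and less RNA per cell cannot be told apart. Intervals and p-values cover counting error only, since each pool gave 1 library. They treat reads as independent, which PCR copies of a molecule are not, so they may be too narrow even for that error.

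Of the 40 members, 28 reached 1 TPM in both libraries and are called detected, or 15 at a mean of at least 10 TPM and 13 below it; across all protein-coding genes the detected share was 58.1%. The remaining 12 did not reach 1 TPM in both. The members' median level was 6.735 TPM, against 3.735 TPM for all protein-coding genes, a set that includes those not detected. Among detected genes the order was the reverse, with a median of 14.25 TPM for members and 20.69 TPM for protein-coding genes. Together they made up 0.156% and 0.166% of all TPM. Ranked by mean TPM, the members overlapped with their neighbour in the order in 30 of 39 adjacent pairs, that is, the range of the 2 libraries for one gene overlapped or enclosed that of the next. The steps without overlap lay at the top of the order (Id3 above Id2, Id2 above Tcf3, Tcf3 above Tcf12, Tcf12 above Tcf4), between Neurod4 and Bhlhe23, between Olig2 and Nhlh1, and at 3 places below 2 TPM.

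**Figure D1:**
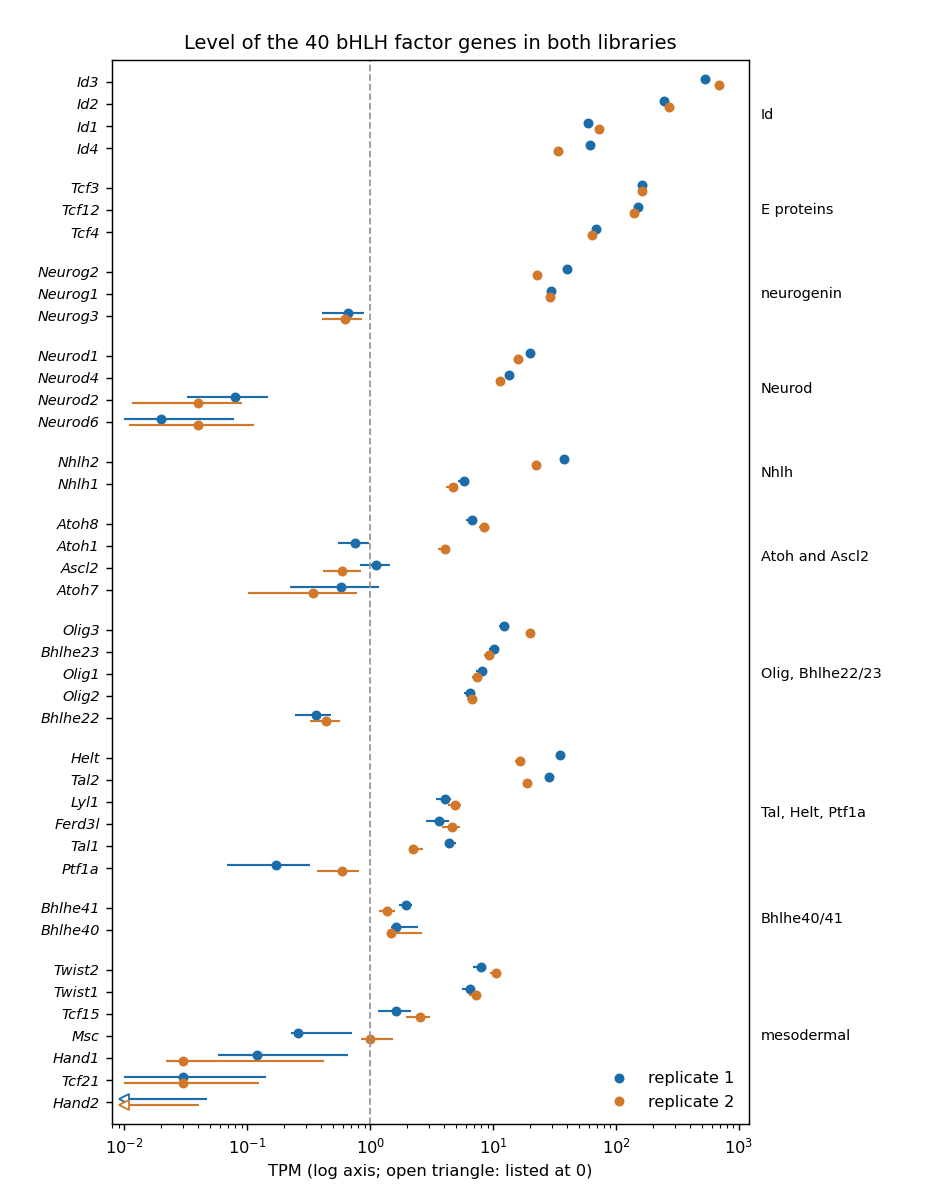
Level of each of the 40 bHLH factor genes in TPM on a log axis, grouped by role, with 1 point per library (replicate 1 blue, replicate 2 orange), lines for the deposited interval bounds (those below 0.01 TPM drawn at the edge) and a dashed line at 1 TPM. Id and E protein genes lie to the right of nearly all others, and Hand2 is listed at 0 in both libraries.

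Id3 and Id2 had the highest levels of all members, and the Id genes the highest sum of any group. Id3 stood at 524.08 and 681.95 TPM, a mean of 603 ± 112 (SD, n = 2), which places it at the 99.12th percentile of protein-coding genes. Id2 followed at 246.47 and 269.16 TPM. Both genes encode inhibitors that progenitors keep on. Id1, a target of BMP signalling like Id2 and Id3, was at 59.31 and 73.28 TPM, while Id4, prominent in neural progenitors, was at 60.86 and 33.53 TPM. Id1, Id2 and Id3 read higher in replicate 2 and Id4 read higher in replicate 1, so the ratio of Id3 to Id4 was 8.61 in one library and 20.3 in the other.

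The 3 E protein genes, whose products are the common dimer partners, had the second highest sum, and Tcf3 and Tcf12 ranked above Id1 and Id4. Tcf3, which encodes the E12 and E47 proteins, was at 162.19 and 162.50 TPM. Tcf12, which encodes HEB, was at 151.07 and 139.13 TPM, and Tcf4, which encodes E2-2, at 69.14 and 63.46 TPM. Tcf12 exceeded Tcf4 by 2.18 and 2.19 times. Summed, the E protein genes reached 382.4 and 365.1 TPM and the Id genes 890.7 and 1058 TPM, so Id RNA stood to E protein RNA as 2.33 and 2.90 to 1, a mean ratio of 2.61 ± 0.40 (SD, n = 2). All other members together reached 289.5 and 235.7 TPM, less than the E proteins in both libraries. RNA of Id and E protein genes made up 57% and 24.5% of the members' summed TPM in replicate 1, and 63.8% and 22% in replicate 2.

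The 3 E protein genes were also the members with several main transcripts. Among the 28 detected members, 25 had a single transcript with at least 10% of the gene's deposited isoform percentage in both libraries, and that transcript held at least 91.44%. Tcf12 differed: transcripts that start over 200 kb downstream of the first annotated base held 61.6% and 58.8% of its TPM, and those that start within 5 kb held 36% and 38.3%. Tcf12-207, a 14-exon transcript starting 215475 bases downstream, had 45.28% and 39.92%, and the 20-exon Tcf12-201 had 17.93% and 15.96%. Tcf4 showed the opposite order, with 69.7% and 69.9% from starts within 5 kb and 27% and 26.3% from starts over 200 kb downstream. Tcf4-205, with 20 exons, had 44.99% and 45.39%, and Tcf4-204, with 13 exons and a start 249632 bases downstream, had 25.04% and 23.19%. Starts and exon numbers are those of GENCODE M21, while the shares were deposited against GENCODE M4. The named Tcf12 transcripts have the same length in both, but Tcf4-205 and Tcf4-204 do not. The Tcf4 starts and exon numbers may therefore differ from those of the transcripts counted.

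Tcf3 was split by an exon choice near its 3' end. Each of its 8 transcripts with 19 exons, the largest number, holds 1 of 2 alternative exons, between the same neighbouring exons. The upstream exon in the direction of transcription lies at chr10:80412827-80413062 (GRCm38, GENCODE M21, minus strand) and spans 236 bases; transcripts with it held 46.7% and 42.2% of the gene's TPM. The downstream exon starts at the low coordinate 80410398 and ends at 80410624 in 4 of these transcripts (227 bases) and at 80410621 in 1 (224 bases), and transcripts with it held 41% and 46.6%. The order of the 2 exons in the deposited shares thus turned between the libraries. The deposited bounds are wide, at 25 to 45.3 and 25.5 to 49.6 TPM for Tcf3-206 and 18.9 to 38.8 and 30.8 to 52.9 TPM for Tcf3-209. The order is therefore uncertain in each library. The main transcripts were Tcf3-206 at 28.35% and 27.91%, Tcf3-209 at 25.08% and 30.82%, and Tcf3-210 at 17.40% and 13.99%. Tcf3-202 (13.48% and 4.51%) and Tcf3-208 (0.81% and 8.62%), named after their values were seen, share the downstream exon, and reads assigned between such alike transcripts are estimates.

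**Figure D2:**
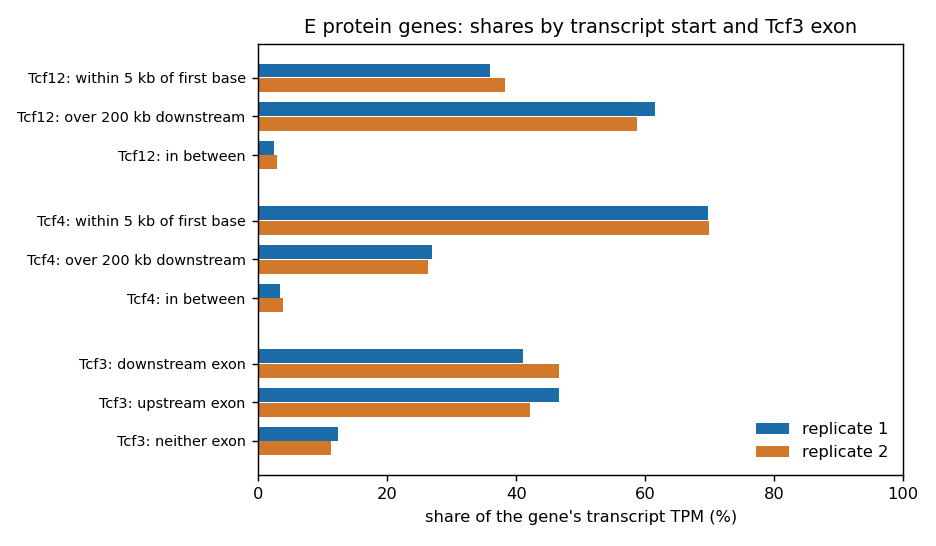
Share of each E protein gene's transcript TPM, in percent, by transcript start for Tcf12 and Tcf4 and by alternative exon for Tcf3, with 1 bar per library. Starts over 200 kb downstream hold most of Tcf12 (61.6% and 58.8%) and starts within 5 kb most of Tcf4 (69.7% and 69.9%), while the 2 exons of Tcf3 are near each other.

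Among the neurogenins, which commit progenitors to the neuronal fate, Neurog2 was at 40.11 and 22.56 TPM and Neurog1 at 29.55 and 29.08 TPM. Neurog1 differed little between the libraries, so Neurog2 stood above Neurog1 in replicate 1 (ratio 1.36) and below it in replicate 2 (ratio 0.776). Neurog3, the neurogenin of endocrine progenitors, was at 0.66 and 0.63 TPM from 28 and 31 counts. It lies against the opposite-strand gene Fam241b, which was at 19.66 and 16.31 TPM, and since the strand use of the counting is not given in the sources used here, reads of the pair cannot be told apart.

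The Neurod genes, which act in neuronal differentiation after the neurogenins, divided into a detected pair and a pair under 0.1 TPM. Neurod1 stood at 19.88 and 16.01 TPM, Neurod4 at 13.53 and 11.40 TPM, with a ratio of 1.47 and 1.40 between them. Neurod2 was at 0.08 and 0.04 TPM and Neurod6 at 0.02 and 0.04 TPM; both are known from cortical neurons of later stages. Nhlh2 and Nhlh1 encode factors switched on in newly formed neurons. Nhlh2 was at 38.05 and 22.19 TPM and Nhlh1 at 5.81 and 4.71 TPM.

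The atonal-related genes were mostly low. Atoh8, expressed in several embryonic tissues, was at 6.72 and 8.42 TPM. Atoh1, the factor of the rhombic lip and its cerebellar and hair cell lineages, was at 0.75 TPM in replicate 1 and 4.07 TPM in replicate 2. Atoh7, the factor of retinal ganglion cells, was at 0.58 and 0.34 TPM, from 6 and 4 counts. Ascl2, an achaete-scute relative known from trophoblast and intestinal stem cells, was at 1.11 and 0.59 TPM.

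Among the Olig genes and their relatives, Olig3, a factor of dorsal neural progenitors, was highest at 12.19 and 19.88 TPM. Olig2, known for ventral progenitors, was at 6.51 and 6.74 TPM and its neighbour Olig1 at 8.17 and 7.45 TPM. Of their close relatives, Bhlhe23 was at 10.17 and 9.19 TPM and Bhlhe22, known from retina and cortex, at 0.36 and 0.44 TPM. Olig3 exceeded Olig2 by 1.87 times in replicate 1 and 2.95 times in replicate 2.

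The factors known for GABAergic neurons were led by Helt, the selector of that fate in the midbrain, at 34.80 and 16.54 TPM. Tal2, which acts in the same lineage, was at 28.33 and 18.78 TPM. Tal1, known both for ventral GABAergic neurons and for blood, was at 4.35 and 2.25 TPM, and Lyl1, its blood and vessel relative, at 4.03 and 4.94 TPM. Tal2 exceeded Tal1 by 6.51 and 8.35 times. Ferd3l, a factor of the ventral midline, was at 3.64 and 4.65 TPM. Ptf1a, the factor of cerebellar and pancreatic lineages, was at 0.17 and 0.59 TPM. The repressor genes of the circadian clock were low, Bhlhe41 with 1.94 and 1.36 TPM and Bhlhe40 with 1.62 and 1.49 TPM.

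Of the 7 mesodermal factors, 3 were detected. Twist2 was at 7.93 and 10.49 TPM and Twist1 at 6.45 and 7.24 TPM. Both act in head mesenchyme, whose 9 marker genes were all detected and summed to 844.9 and 603.0 TPM. Col3a1 led that sum at 416.36 and 316.74 TPM. In the comparison of libraries described below, 6 of these markers lay above a log2 ratio of 0 and 3 below. The part of mesenchyme in the Twist levels was not tested. Tcf15, a somite factor, was at 1.62 and 2.53 TPM. Msc, a factor of head muscle precursors, was at 0.26 and 1.00 TPM, beside 3 of 6 head muscle genes detected, out of a list that summed to 73.01 and 58.72 TPM, with Myod1 at 0.04 and 0.00 TPM. Hand1 was at 0.12 and 0.03 TPM and Tcf21 at 0.03 and 0.03 TPM; both are known from heart or visceral mesoderm. Hand2 had no count in either library, and 3 counts, the limit that 0 allows, would be 0.048 and 0.042 TPM.

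The 2 pools were then compared to see how far a member's level depends on the pool. Expected counts were scaled to each other, and a gene was called different when the two-sided exact binomial test had an adjusted p below 0.05 over all 14768 genes tested (mean at least 1 TPM) and the levels differed by at least 2-fold. The test compares 2 libraries and no conditions, and with 1 library a side there is no replicate check. The log2 ratios below are of these scaled counts, replicate 1 over replicate 2, and differ a little from the ratio of the TPM values.

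Of the 29 members tested, 0 were called higher in replicate 1 and 1 higher in replicate 2, against 1.71% and 0.664% of all genes tested. The called member was Atoh1, with 44 counts in replicate 1 and 272 in replicate 2. Its log2 ratio was -2.49, with a 95% interval of -3.00 to -2.05, a 5.64-fold difference and an adjusted p of 4.1e-36 in the exact binomial test. The interval lies below the -0.65 that bounds the lowest 2.5% of all genes. Beside Atoh1, 2 of 7 genes of the hindbrain, which holds the rhombic lip, were detected, with Hoxa2 at 0.24 and 1.67 TPM, Gbx2 at 3.03 and 3.95 TPM and the list summing to 7.22 and 9.22 TPM. No hindbrain marker was at 0 in both libraries. Of 8 eye genes, 4 were detected and the sum was 16.79 and 20.66 TPM; 2 tested genes lay above a log2 ratio of 0 and 4 below. Rax (2.99 and 5.73 TPM) and Six6 (0.56 and 1.55 TPM) were called in the direction of Atoh1, while Six3, the highest of the list, went the other way at 6.70 and 3.41 TPM without being called, and Cryaa, a lens gene, was at 0.03 and 0.00 TPM. Of 6 neural crest genes, 4 were detected and the sum was 143.6 and 99.16 TPM; 2 tested genes lay above 0 and 3 below. Sox10 was called in the direction of Atoh1, at 0.46 and 2.15 TPM, and Foxd3 was at 0.05 and 0.20 TPM. The more abundant Sox9 (91.18 and 52.51 TPM) and Tfap2b (28.26 and 20.84 TPM) read higher in replicate 1 and carried most of the sum. The intervals of Ets1 (-0.13 to 0.01) and Tfap2a (-0.50 to 0.18) include 0. The part of these tissues in the Atoh1 difference was not tested.

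Relaxed to 1.5-fold, 5 members were called higher in replicate 1, or 17.2% of those tested, against 5.76% of all genes. They were Helt, Tal1, Id4, Neurog2 and Nhlh2. In the other direction 3 members, or 10.3%, were called, against 1.96%: Atoh1, Olig3 and Tcf15. The remaining 21 tested members differed by less than 1.5-fold. At any size, the exact binomial test gave an adjusted p under 0.05 to 21 members, 11 higher in replicate 1 and 10 in replicate 2, and to 53.2% of all genes. The median log2 ratio of the members was 0.04, against 0.00 for all genes tested, and 95% of all genes lay between -0.65 and 0.93.

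Helt fell just short of the call at 2-fold: 1462 and 795 counts, a log2 ratio of 1.00 (interval 0.87 to 1.12), 1.997-fold, with an adjusted p of 1.4e-56 in the exact binomial test. Its interval reaches past 1, and compared as TPM without further scaling it passed, at 1.07. Tal2, the next GABAergic factor, had 2388 and 1812 counts and a log2 ratio of 0.52 (0.43 to 0.61, exact binomial adjusted p 1.1e-29). For Tal1 the log2 ratio was 0.90 (0.69 to 1.11). Lyl1, which shares the blood and vessel lineages with Tal1, had a log2 ratio of -0.37 (-0.64 to -0.10). Erythroid genes were 9 of 9 lower in replicate 1, with a median log2 ratio of -0.30 and sums of 11380 and 13310 TPM, and all 9 were detected. Endothelial genes, 10 of 10 detected, had 4 above 0 and 6 below, with sums of 199.2 and 216.8 TPM; the part of blood and vessels in the Tal1 and Lyl1 levels was not tested. Tal1 read higher in replicate 1 and Lyl1 in replicate 2. With 1 library a side, these directions cannot show the source of their RNA. Of 8 genes whose products join Tal1 in complexes, Gata3 was called, at 23.95 and 8.92 TPM, while Gata2 was at 20.60 and 9.86 TPM and Gata1, an erythroid gene, at 4.57 and 6.61 TPM. Ldb1 was at 68.67 and 68.68 TPM and Lmo1 at 42.58 and 24.29 TPM.

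Neurog2 had 2504 and 1612 counts, a log2 ratio of 0.75 (0.66 to 0.85) and an adjusted p of 3.1e-60 in the exact binomial test, and Nhlh2 had 3634 and 2426 counts and a log2 ratio of 0.70 (0.63 to 0.78; exact binomial adjusted p 7.6e-77). Neurog1, with 1353 and 1524 counts, had a log2 ratio of -0.05 (-0.16 to 0.05; exact binomial adjusted p 0.44). The interval excludes a difference as large as that of Neurog2. Neurod1 had a log2 ratio of 0.24 (0.13 to 0.34), Neurod4 of 0.17 (0.06 to 0.29) and Nhlh1 of 0.23 (0.02 to 0.43). Beside Neurog2 and Nhlh2, 9 of 9 markers of newborn neurons lay above 0, at a median log2 ratio of 0.55, with sums of 1551 and 1011 TPM and 0 called at 2-fold. The lowest, Elavl3, was at 13.00 and 8.23 TPM. The part of these cells in the neurogenic factors' differences was not tested.

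Genes known as partners or targets of proneural factors lay on the same side as Neurog2. Of the 15, 14 could be tested, and all 14 had a log2 ratio above 0, with a median of 0.52, and 3 were called. Hes6 was at 278.34 and 181.15 TPM, Gadd45g at 205.71 and 163.48 TPM and Btg2 at 136.16 and 90.95 TPM. The lowest were Cbfa2t3 at 3.77 and 2.04 TPM and Prdm8 at 0.38 and 0.22 TPM. The 3 called genes, chosen after their values were seen, were Dcx (44.54 and 19.60 TPM), St18 (29.41 and 12.99 TPM) and Myt1 (24.82 and 10.58 TPM), each of which serves neuronal differentiation or migration.

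On the other side, Olig3 had 697 and 1301 counts and a log2 ratio of -0.78 (-0.92 to -0.65), with an adjusted p of 9.8e-31 in the exact binomial test. Bhlhe23, with 723 and 747 counts, had a log2 ratio of 0.07 (-0.08 to 0.22; exact binomial adjusted p 0.45), and Olig1 and Olig2 had log2 ratios of 0.06 (-0.12 to 0.24) and -0.12 (-0.31 to 0.06). The intervals of these 3 relatives include 0 and lie wholly above that of Olig3. Tcf15 rested on 42 and 75 counts, with an interval of -1.30 to -0.15. Twist2 had a log2 ratio of -0.47 (-0.69 to -0.26; exact binomial adjusted p 4.6e-05), Twist1 one of -0.24 (-0.47 to -0.02; exact binomial adjusted p 0.064) and Atoh8 one of -0.40 (-0.58 to -0.22). Bhlhe41 was at 0.49 (0.25 to 0.72) and Bhlhe40 at 0.04 (-0.30 to 0.38). Ferd3l, from 84 and 123 counts, was at -0.43 (-0.85 to -0.02).

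Of the Id and E protein genes, Id3 had 17652 and 26386 counts and a log2 ratio of -0.46 (-0.49 to -0.43), with an adjusted p of 7.0e-238 in the exact binomial test. Id2 had 8472 and 10588 counts and a log2 ratio of -0.20 (-0.24 to -0.16; exact binomial adjusted p 7.2e-21), and Id1 a log2 ratio of -0.37 (-0.47 to -0.28). Id4 went the other way, with 2789 and 1758 counts and a log2 ratio of 0.79 (0.70 to 0.87; exact binomial adjusted p 9.9e-72). Id4 overlaps an opposite-strand gene, A330033J07Rik, at 0.80 and 0.38 TPM. Tcf3 was at -0.10 (-0.13 to -0.06), Tcf12 at 0.07 (0.03 to 0.10) and Tcf4 at 0.07 (0.01 to 0.12). The intervals of all 3 E protein genes lie between -0.13 and 0.12.

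Genes of BMP signalling, which acts upstream of the Id genes, were compared in the same way. Of 16 tested, 5 lay above 0 and 11 below, with a median log2 ratio of -0.09 and 0 called; Bmpr1a was at 32.01 and 32.73 TPM, Smad1 at 31.25 and 28.85 TPM, Smad5 at 30.28 and 26.06 TPM, Gdf7 at 0.16 and 0.41 TPM, and Smad9 at 0.10 and 0.11 TPM. The Hes and Hey repressors, which Notch signals induce against the proneural genes, were led by Hes5 at 698.38 and 585.42 TPM, with Hey1 at 39.26 and 34.20 TPM, Hes1 at 27.06 and 36.19 TPM, Hey2 at 2.46 and 3.02 TPM and Hes7 at 0.06 and 0.07 TPM. Of the 6 tested, 3 lay above 0 and 3 below.

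**Figure D3:**
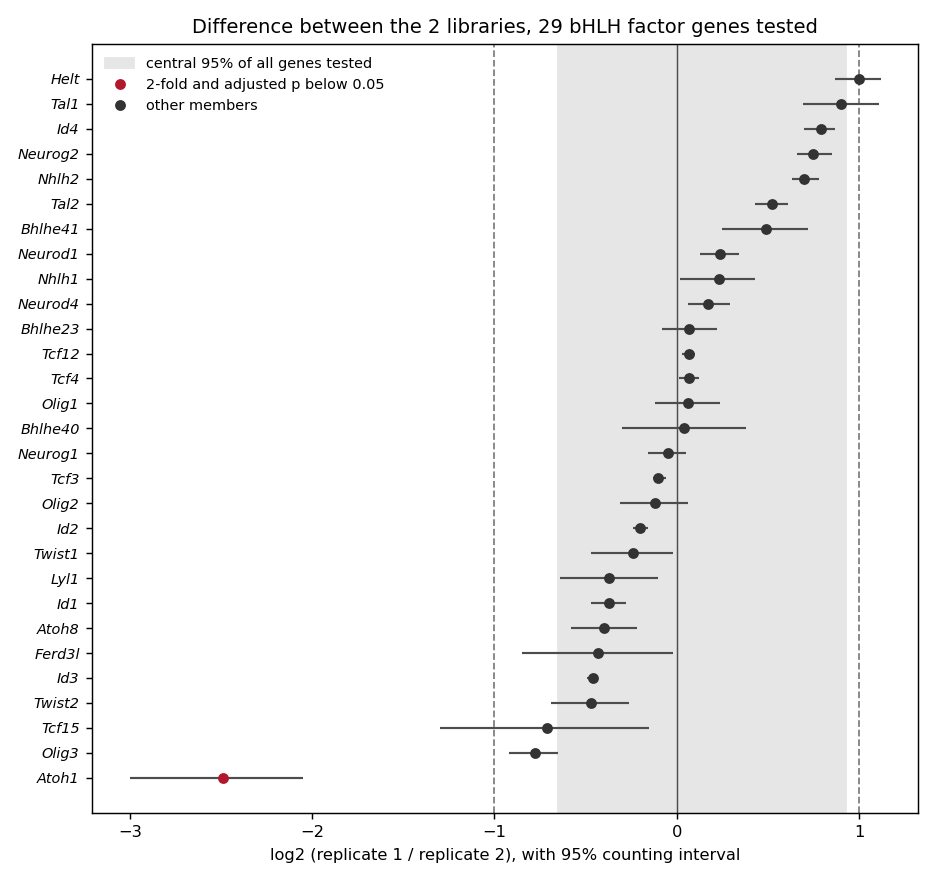
Log2 ratio of replicate 1 over replicate 2, with its 95% counting interval, for the 29 bHLH factor genes tested; the band spans the central 95% of all genes tested (-0.65 to 0.93) and dashed lines mark 2-fold. Atoh1 (red) alone lies past 2-fold, and Helt, Tal1, Id4, Neurog2 and Nhlh2 lie on the opposite side.

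**Figure D4:**
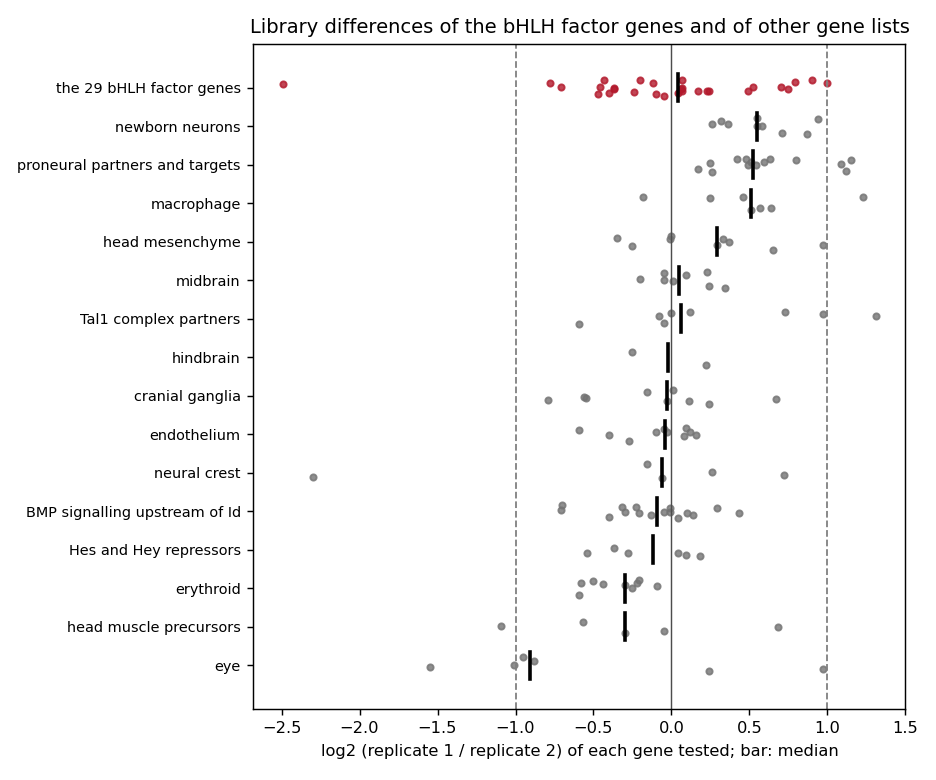
Log2 ratio of replicate 1 over replicate 2 for each tested gene of the 29 bHLH factor genes (red) and of the other lists (grey), with the median as a bar and dashed lines at 2-fold; points are spread vertically for sight only. Newborn neuron and proneural partner genes all lie to the right of 0, and all 9 erythroid genes to the left.

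Many members share a feature of structure that the choice by family did not use. In the transcript with the highest TPM in replicate 1, 16 of the 28 detected members, or 57.1%, have at most 2 exons, with a median of 2; among 12476 detected protein-coding genes it was 9.2%, with a median of 8. Neurog1, Olig3, Bhlhe23, Olig1 and Ferd3l each have 1 exon. Id2, Id3, Id4 and Atoh8 have 3 exons, Helt and Lyl1 have 4, and Tal1, Bhlhe40 and Bhlhe41 have 5. The 3 E protein genes depart furthest, with 13 to 20 exons in the transcripts named above. Exon numbers are those of GENCODE M21.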

How the data were processed

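The data are 2 libraries of total RNA from pooled midbrain, extracted with Ambion mirVana per the labels' protocols. The authors deposited gene and transcript tables against mm10 and GENCODE M4, per the file headers. The columns used are expected counts (estimated counts per gene, not normalized), TPM and FPKM values made by the authors, the deposited isoform percent, and the deposited interval bounds, a signal on the TPM scale around a posterior mean, so that some deposited TPM values lie outside them. No source used here gives the aligner, quantifier or strand setting. Gene names and positions came from GENCODE M21 on GRCm38, matched by Ensembl ID without version; promoters came from RefSeq on GRCm38.p6.

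Expected counts were rounded to whole numbers and scaled by TMM (edgeR 4.0.16, R 4.3.3), with 3.39% and 3.28% of counts on rows that name no gene left out. Each gene of at least 1 TPM mean was tested by a two-sided exact binomial test (scipy 1.17.1) with Benjamini-Hochberg adjustment, and 0.5 was added to counts in ratios. The method was tested on simulated data that held counting error only, as the test assumes. It was therefore not tested against spread between pools. Every member is named; full statistics go to the called members and the 2 highest of each role, and transcripts are named at 10% or more in both libraries. Of each list of related genes up to 3 highest and 2 lowest are named. Names outside these rules, among them Gata3, Rax, Six6, Six3, Sox10, Sox9 and Hoxa2, were chosen after their values were seen. The members and lists were chosen with earlier results of these data known. Alternatives were DESeq2 1.42.0 size factors, TPM ratios, other minimums, pseudocounts and folds, FPKM, and each library alone. Protein identities were not computed.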

Additional observations from a re-analysis of the deposited data

How the results depend on the processing

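The number of detected members, 28, was 25 to 31 under minimums of 0.5 and 2 TPM, deposited FPKM and posterior mean TPM, and 29 to 30 with either library alone. The members' median level, 2.95 as log2(mean TPM + 1), was 2.77 with a pseudocount of 0.1, 3.38 over members of at least 0.5 TPM and 2.40 in FPKM, and 2.90 to 3.0 with either library alone. With DESeq2 size factors Atoh1 remained the 1 member called, among 349 genes. Comparing TPM without further scaling, which moves the median of all genes to a log2 ratio of 0.08, called 1 member higher in replicate 1, Helt, at a log2 ratio of 1.07, and turned Neurog1 from -0.05 to 0.02. Without the level filter, 3 members were called higher in replicate 2 (Atoh1, Msc and Ptf1a), and with a filter of 5 TPM, which leaves Atoh1 untested, 0. At 1.5-fold the calls were 5 and 3. Over all genes the calls, 350, were 1093 without the filter, 100 with the filter of 5 TPM, 1140 at 1.5-fold and 91 at 3-fold. No paired analysis was possible because the series has 1 group. Depth limits Atoh7, Ptf1a, Hand1, Neurod2, Neurod6 and Tcf21, each with at most 28 counts a library, and no difference between the pools has a replicate check.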

Other observations

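The closest pairs of members in the genome were Twist1 with Ferd3l and Olig1 with Olig2, ahead of Id1 with Tcf15 at 587.2 kb and Neurog3 with Atoh7 at 964.9 kb. Olig1 and Olig2 are 41.1 kb apart on chromosome 16 and stood at 8.17 and 7.45 TPM and at 6.51 and 6.74 TPM. Twist1 and Ferd3l are 28.4 kb apart on chromosome 12, at 6.45 and 7.24 TPM and at 3.64 and 4.65 TPM. Neurod1 shares bases with the same-strand gene Cerkl, at 2.16 and 1.72 TPM, and Lyl1 with the opposite-strand gene Nfix, at 1.04 and 0.42 TPM. Markers of cranial ganglia, a tissue outside the brain in which Neurog1, Neurod1 and Nhlh1 are also known to act, were 9 of 9 detected, with sums of 74.61 and 72.65 TPM and Pou4f1 at 21.01 and 20.77 TPM. Their part in the levels of these 3 genes was not tested. Macrophage genes were 6 of 7 higher in replicate 1, with sums of 77.63 and 51.99 TPM.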
